A study of Mus musculus with 12 samples.

Results

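Expression of 9 p53 target and growth arrest genes was examined in mouse plantaris, a fast-fibred muscle of the calf. The genes were chosen by name, as the p53 gene Trp53 and 8 p53 target or growth arrest genes: Cdkn1a, Mdm2, Ccng1, Trp53inp1, Bax, Gadd45a, Gadd45b and Gadd45g. A gene's value was that of the array row paired with its symbol alone. This gave 6 of the 9 genes (Cdkn1a, Mdm2, Ccng1, Trp53inp1, Gadd45b and Gadd45g) among 22180 genes in all. All 6 passed the filter on low values, which kept 13747 genes for testing. Gadd45a shared a row with the long noncoding RNA gene E230016M11Rik, which overlaps it in the reference annotation, so that row is described on its own. Trp53 and Bax were not analysed here.

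The 12 Affymetrix whole-transcript arrays came from 4 groups, each of 3 arrays from male mice aged 12 weeks: REDD1 knockout exercised, REDD1 knockout sedentary, wild-type exercised and wild-type sedentary. Muscle of the exercised mice was taken 1 hour after they had completed 1 aerobic bout, and every mouse in the 4 groups had gone without food for 3 hours. REDD1, the product of Ddit4, is a stress-induced inhibitor of the growth-promoting kinase complex mTORC1. How the knockout allele was made, and whether it removes the gene from every tissue, is not given in the sources used here. The labels name no litter, batch or day. Values are log2 expression.

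The transcription factor p53 is held at low levels by the ubiquitin ligase MDM2 and accumulates under DNA damage and other stress. It then switches on genes that stop the cell cycle, repair DNA, alter metabolism or start apoptosis, and Mdm2 itself is among them, which closes a feedback loop. Many of its targets also answer to other signals, and in skeletal muscle, whose fibre nuclei no longer divide, genes such as Cdkn1a and Gadd45a are known for their rise when muscle is denervated, unloaded or fasted.

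Ddit4 stood between 5.72 and 6.77 in knockout exercised arrays, against 8.40 to 9.05 in wild-type exercised arrays, and between 5.08 and 5.44 in knockout sedentary arrays, against 5.83 to 6.13 in wild-type sedentary arrays. Neither pair of groups overlapped, as was so for 11.7% of all genes in exercised and 13.1% in sedentary muscle. The log2 fold change was -2.37 in exercised muscle (SE 0.22, limma adjusted p = 0.00011) and -0.71 in sedentary muscle (SE 0.22, adjusted p = 0.411, not called). Averaged over conditions it was -1.54 (SE 0.16, limma adjusted p = 0.000137). With exercise, Ddit4 rose by 2.70 in wild type (adjusted p = 4.73e-05) and by 1.04 in the knockout (adjusted p = 0.0679, not called). Whether the probes lie inside the deleted part of Ddit4 is not given in the sources used here. All 15 skeletal muscle fibre markers passed the filter on low values. So did all 11 fibroblast and matrix, 10 endothelial, 8 smooth muscle and pericyte and 7 satellite cell markers, so passing does not set fibres apart. Fewer passed among neutrophil markers (2 of 8) and proliferation markers (4 of 12). The pan-proliferation genes Mki67, Top2a and Cdk1 were among those below the filter. The arrays correlated with one another across all rows with Pearson's r between 0.967 and 0.985. In these whole-muscle samples, fewer cells of a type and less RNA per cell cannot be told apart.

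Promoter windows are shown for Cdkn1a, the gene with the genotype difference and a well-studied p53 target, and for the paralogues Gadd45g and Gadd45b, whose averaged exercise effects, neither of them called, had opposite signs. The RefSeq table (GRCm38.p6) held windows for 5 of the 6 genes, Trp53inp1 being the exception, each with 250 bases before and 50 after a transcription start. The 4 windows are read on the plus strand, 5′ to 3′, which is the coding strand of all 3 genes. Capitals mark every match, on either strand, to the p53 decamer (the 10-base unit of a p53 response element), the glucocorticoid element (GNACA and TGTNC with NNN between), the AP-1 site TGANTCA, the cyclic AMP element TGACGTCA, the E-box CACGTG, the CCAAT box CCAAT, the TATA-like TATAA or the FOXO site GTAAACA.
Cdkn1a upstream start, chr17:29090729-29091028: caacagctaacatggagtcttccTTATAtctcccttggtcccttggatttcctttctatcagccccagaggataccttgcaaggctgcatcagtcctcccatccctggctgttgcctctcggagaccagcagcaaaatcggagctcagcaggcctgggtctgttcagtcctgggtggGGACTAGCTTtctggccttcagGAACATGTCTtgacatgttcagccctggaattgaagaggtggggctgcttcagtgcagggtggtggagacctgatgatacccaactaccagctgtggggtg
Cdkn1a downstream start, chr17:29093519-29093818: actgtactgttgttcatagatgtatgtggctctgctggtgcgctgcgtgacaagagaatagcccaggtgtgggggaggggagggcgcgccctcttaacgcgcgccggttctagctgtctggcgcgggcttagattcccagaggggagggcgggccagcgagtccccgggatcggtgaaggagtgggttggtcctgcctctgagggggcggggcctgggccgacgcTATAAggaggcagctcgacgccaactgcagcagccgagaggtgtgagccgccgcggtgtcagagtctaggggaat
Gadd45g, chr13:51846425-51846724: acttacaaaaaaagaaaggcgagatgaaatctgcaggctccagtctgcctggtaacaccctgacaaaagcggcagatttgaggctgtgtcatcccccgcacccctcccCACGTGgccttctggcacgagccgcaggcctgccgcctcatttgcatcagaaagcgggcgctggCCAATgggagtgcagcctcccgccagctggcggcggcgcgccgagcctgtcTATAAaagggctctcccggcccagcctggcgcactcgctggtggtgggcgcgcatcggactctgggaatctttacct
Gadd45b, chr10:80929841-80930140: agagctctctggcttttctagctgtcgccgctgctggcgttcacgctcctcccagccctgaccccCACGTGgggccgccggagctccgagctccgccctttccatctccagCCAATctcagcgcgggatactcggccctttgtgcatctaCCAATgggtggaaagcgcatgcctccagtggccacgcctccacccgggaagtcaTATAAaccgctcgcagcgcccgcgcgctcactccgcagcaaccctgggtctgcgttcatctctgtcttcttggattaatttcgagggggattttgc
No 2 of the matches shown overlapped. The upstream Cdkn1a window held 2 p53 decamers. The nearer to the start, GAACATGTCT, was followed directly by TGACATGTTC, which departs from the decamer pattern at 1 base. Mdm2 and Ccng1 had 1 decamer each in their windows. At least 1 was found in 3 of the 6 windows, from 3 of the 5 genes, against 8.36% of 32851 windows of 300 bases. The genes were chosen by name as p53 target and growth arrest genes, so this comparison is a description. The windows of Gadd45g and Gadd45b held none. Each had a CACGTG, present in 7.15% of all windows, and a TATAA, present in 24.9%. The glucocorticoid element, TGANTCA and TGACGTCA were found in 0 of the 6 windows of these genes, against 0.475%, 7.81% and 1.79% of all windows. A match is a description of the letters and does not show binding.

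**Figure D1:**
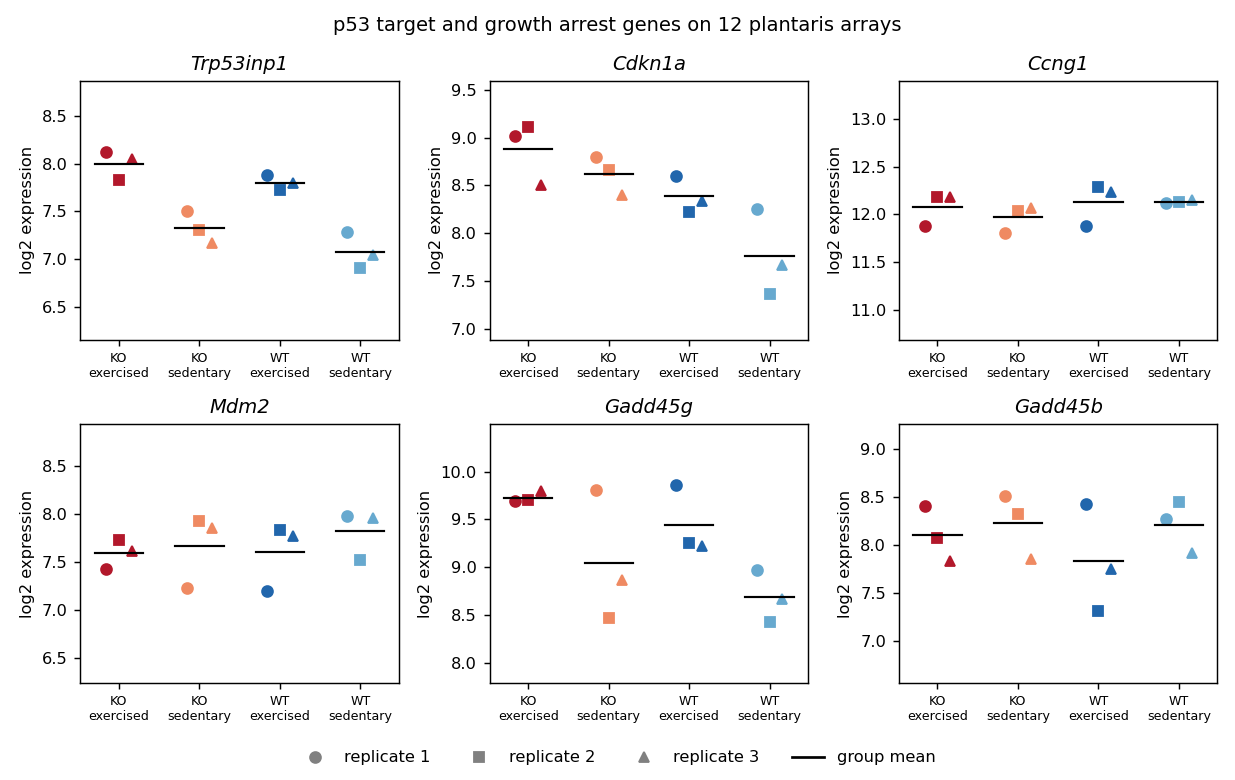
Log2 expression (vertical axis, the same span in each panel) of the 6 measured genes on each of the 12 arrays, by group, with group means as black lines and replicates as symbols. Exercised arrays of Trp53inp1 lie above sedentary ones in both genotypes, from 7.72 to 8.12 against 6.90 to 7.5.

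Of the 6 genes, only Trp53inp1 was called for exercise in either genotype, that is, had an adjusted p under 0.05 over all 13747 genes. It rose about 1.6-fold 1 hour after exercise in knockout and in wild-type muscle. Trp53inp1 encodes a nuclear protein that promotes p53 activity and, in the cytoplasm, takes part in autophagy. Among the genes of the GADD45 family, stress-induced small proteins that bind the p38 kinase activator MEKK4, Gadd45g had values of similar size to Trp53inp1 but did not pass the test, and Gadd45b had negative values. In the knockout, 1 of the 6 genes was called, and 0.276% of all genes were. In wild type, 1 of 6 was called, against 0.567% of all genes. The median of the 6 averaged exercise effects was 0.25, beside -0.01 over all genes, and 4 of the 6 were positive, beside 45.7% of all genes.

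Trp53inp1 stood at 8.12, 7.82 and 8.05 in knockout exercised arrays, against 7.5, 7.30 and 7.17 in knockout sedentary arrays. It stood at 7.88, 7.72 and 7.80 in wild-type exercised arrays, against 7.28, 6.90 and 7.05 in wild-type sedentary arrays. The lowest exercised array was above the highest sedentary array of either genotype. Over all genes, the groups failed to overlap for 13.9% in the knockout and 12.9% in wild type, and in the same direction in both for 2.56%. The log2 fold change was 0.67 (SE 0.12, 95% interval 0.41 to 0.93, limma adjusted p = 0.0313) in the knockout and 0.72 (SE 0.12, 0.46 to 0.98, adjusted p = 0.00934) in wild type. Averaged over genotypes, with 6 arrays on each side, it was 0.70, a 1.62-fold rise (SE 0.09, limma adjusted p = 0.000408), where 1.6% of all genes were called. The averaged call held under all 25 alternative settings. The knockout call was lost without knockout exercised replicate 1 (adjusted p = 0.151) or 3 (0.14), or knockout sedentary replicate 2 (0.0907) or 3 (0.126), and the wild-type call without wild-type exercised replicate 3 (0.0501) or wild-type sedentary replicate 2 (0.0695). The fold change stayed between 0.59 and 0.76 in the knockout and between 0.64 and 0.82 in wild type.

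The difference between the exercise effects on Trp53inp1 was -0.05 (knockout minus wild type, SE 0.17), with a 95% interval of -0.42 to 0.32. The adjusted p was 0.997, and limma called 0% of all genes and 0 of the 6 for this difference, with 4.51% of all genes at an unadjusted p under 0.05. Even Ddit4, with the largest such difference of all genes (-1.66, SE 0.31), was not called (limma adjusted p = 0.633). The absence of calls therefore does not show that the genotypes respond alike. Trp53inp1 was 0.20 higher in knockout exercised than in wild-type exercised arrays (SE 0.12, adjusted p = 0.891) and 0.25 higher in knockout sedentary than in wild-type sedentary arrays (SE 0.12, adjusted p = 0.676). From high to low, the group means were 8.0 ± 0.15 (knockout exercised), 7.80 ± 0.08 (wild-type exercised), 7.32 ± 0.17 (knockout sedentary) and 7.08 ± 0.19 (wild-type sedentary) (SD, n = 3). In that order both exercised groups overlapped, as did both sedentary groups, and the gap lay between exercised and sedentary arrays.

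Gadd45g stood at 9.69, 9.70 and 9.79 in knockout exercised arrays, against 9.81, 8.47 and 8.87 in knockout sedentary arrays. In wild-type exercised arrays it stood at 9.86, 9.25 and 9.23, against 8.98, 8.43 and 8.67 in wild-type sedentary arrays. Knockout sedentary replicate 1 was as high as the exercised arrays, so the knockout groups overlapped, while the wild-type groups did not. The log2 fold change was 0.68 (SE 0.26, adjusted p = 0.398) in the knockout and 0.75 (SE 0.26, adjusted p = 0.356) in wild type. Averaged over genotypes it was 0.72, 1.64-fold (SE 0.18, 95% interval 0.33 to 1.10), and missed the threshold (limma adjusted p = 0.067). Without knockout sedentary replicate 1, the averaged value was 0.91 with an adjusted p of 0.00215, and the knockout value was 1.06 with an adjusted p of 0.0538. Without knockout sedentary replicate 2, the knockout value was 0.39 (adjusted p = 0.71) and the averaged value 0.57 (adjusted p = 0.133). The within-group standard deviation of Gadd45g, 0.41, exceeded that of 98.2% of the genes tested.

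Gadd45b, which like Gadd45g is known as an early response gene, stood at 8.41, 8.07 and 7.83 in knockout exercised arrays, against 8.51, 8.33 and 7.86 in knockout sedentary arrays. It stood at 8.43, 7.32 and 7.76 in wild-type exercised arrays, against 8.28, 8.45 and 7.91 in wild-type sedentary arrays. The groups overlapped in both genotypes, and the wild-type exercised arrays alone spanned 8.43 to 7.32. The log2 fold change was -0.13 (SE 0.24, adjusted p = 0.929) in the knockout and -0.38 (SE 0.24, adjusted p = 0.768) in wild type. The wild-type value was -0.12 without wild-type exercised replicate 2 and -0.68 without wild-type exercised replicate 1, and was called in neither case. The 95% interval of the averaged effect, -0.62 to 0.11, did not reach the value of 0.72 estimated for Gadd45g. The 2 effects come from the same arrays and their difference was not tested.

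**Figure D2:**
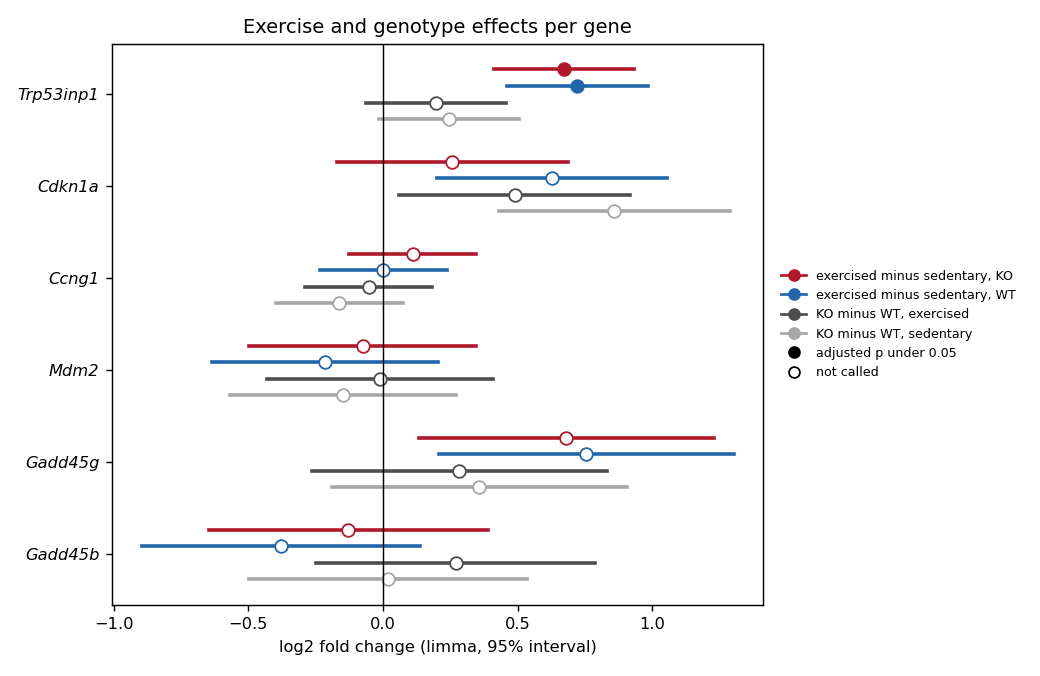
Log2 fold change with its 95% interval (horizontal axis) of each gene for exercise in the knockout and in wild type, and for genotype in exercised and in sedentary muscle. Filled circles mark an adjusted p under 0.05, which only Trp53inp1 reached, for exercise in the knockout (0.67) and in wild type (0.72).

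The row shared by Gadd45a and E230016M11Rik cannot be assigned to either gene. It stood at 7.49, 7.41 and 7.39 in knockout exercised arrays, against 7.25, 7.06 and 7.59 in knockout sedentary arrays, and at 7.28, 7.47 and 7.28 in wild-type exercised arrays, against 6.89, 6.93 and 7.22 in wild-type sedentary arrays. The wild-type groups did not overlap and the knockout groups did. Tested with the other rows that name several genes, it gave a log2 fold change for exercise of 0.13 (SE 0.13, adjusted p = 0.853) in the knockout and 0.33 (SE 0.13, adjusted p = 0.53) in wild type, neither of which passed.

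Cdkn1a encodes p21, the inhibitor of cyclin-dependent kinases through which p53 arrests the cell cycle. It was higher in knockout than in wild-type muscle, 1.6-fold averaged over conditions, and was the 1 of 6 genes called for genotype, where 0.546% of all genes were called. It stood at 9.01, 9.11 and 8.51 in knockout exercised arrays, against 8.59, 8.23 and 8.34 in wild-type exercised arrays. In knockout sedentary arrays it stood at 8.80, 8.66 and 8.40, against 8.25, 7.37 and 7.67 in wild-type sedentary arrays. The sedentary groups did not overlap, as was so for 13.1% of all genes, and the exercised groups overlapped through knockout exercised replicate 3. In exercised muscle, 11.7% of all genes had groups without overlap. The averaged log2 fold change was 0.67 (SE 0.14, 95% interval 0.37 to 0.98, limma adjusted p = 0.0491).

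This call for Cdkn1a lay close to the threshold. It was made under 11 of 25 alternative settings, and the value stayed between 0.58 and 0.80 in all of them. Leaving out knockout exercised replicate 1 or 2, knockout sedentary replicate 1 or 2, wild-type exercised replicate 2 or 3, or wild-type sedentary replicate 2 or 3 ended it (adjusted p between 0.114 and 0.136). Within a condition, the difference was 0.49 in exercised muscle (SE 0.20, adjusted p = 0.689) and 0.86 in sedentary muscle (SE 0.20, adjusted p = 0.185), and 0 of the 6 genes were called in either, against 0.175% and 0.138% of all genes. Without wild-type sedentary replicate 1, the highest of its group, the sedentary difference was 1.10 and was called (adjusted p = 0.04). Markers of Schwann cells and nerve were positive for genotype averaged over conditions in 5 of 5 measured genes (median 0.23, 0 called), with levels relative to the 12-array mean from -0.43 to 0.60 in knockout exercised, -0.35 to 0.68 in knockout sedentary, -0.45 to 0.78 in wild-type exercised and -0.46 to -0.23 in wild-type sedentary arrays. In sedentary muscle, where the Cdkn1a difference was 0.86, the genotype effect was positive for 5 of 5 of these markers (median 0.38), 11 of 11 fibroblast and matrix markers (0.33), 5 of 6 adipocyte markers (0.25), 9 of 11 macrophage and leukocyte markers (0.13) and 6 of 8 smooth muscle and pericyte markers (0.19), with 0 called. It was positive for 6 of 10 endothelial, 3 of 7 satellite cell and 3 of 15 muscle fibre markers. On knockout sedentary replicates 1, 2 and 3, the fibroblast and matrix list stood at 0.16, -0.17 and 0.96 relative to the 12-array mean. The Schwann cell and nerve list stood there at -0.35, -0.09 and 0.68. Cdkn1a was lowest of that group on replicate 3. In exercised muscle, 2 of 11 fibroblast and matrix markers were positive (median -0.25). The part of these markers in the result was not tested.

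For exercise, the log2 fold change of Cdkn1a was 0.26 (SE 0.20, adjusted p = 0.804) in the knockout and 0.63 (SE 0.20, adjusted p = 0.301) in wild type, and both pairs of groups overlapped. The comparisons of exercise and of genotype use the same arrays, so the low wild-type sedentary level enters both. The difference of the exercise effects was -0.37 (knockout minus wild type, SE 0.28, 95% interval -0.98 to 0.24, adjusted p = 0.997). It was -0.17 without wild-type sedentary replicate 2, -0.18 without knockout exercised replicate 3 and -0.61 without wild-type sedentary replicate 1. The group means of Cdkn1a were 8.88 ± 0.33 in knockout exercised, 8.62 ± 0.20 in knockout sedentary, 8.39 ± 0.19 in wild-type exercised and 7.76 ± 0.45 in wild-type sedentary arrays (SD, n = 3), and each neighbour in this order overlapped the next. Averaged over genotypes, the exercise effect was 0.44 (SE 0.14, limma adjusted p = 0.182), and it was called without wild-type sedentary replicate 1 (0.56, adjusted p = 0.0419).

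Mdm2 and Ccng1, both direct p53 targets whose products restrain p53, were called in none of the 7 comparisons. Mdm2 stood at 7.42, 7.73 and 7.62 in knockout exercised arrays, against 7.22, 7.92 and 7.85 in knockout sedentary arrays, and at 7.20, 7.83 and 7.77 in wild-type exercised arrays, against 7.97, 7.52 and 7.95 in wild-type sedentary arrays. All pairs of groups overlapped. The averaged exercise effect on Mdm2 was -0.15 (SE 0.14, 95% interval -0.44 to 0.15, adjusted p = 0.769). The averaged genotype effect was -0.08 (SE 0.14, 95% interval -0.38 to 0.22, adjusted p = 0.927). Ccng1, which encodes cyclin G1, stood at 11.88, 12.18 and 12.18 in knockout exercised arrays, against 11.80, 12.04 and 12.07 in knockout sedentary arrays, and at 11.88, 12.28 and 12.23 in wild-type exercised arrays, against 12.11, 12.13 and 12.15 in wild-type sedentary arrays. The sedentary arrays of Ccng1 did not overlap between genotypes, with a difference of -0.16 (SE 0.11, adjusted p = 0.773). Its averaged effects had the narrowest intervals of the 6 genes. They were 0.06 for exercise (SE 0.08, -0.11 to 0.22, adjusted p = 0.864) and -0.11 for genotype (SE 0.08, -0.28 to 0.06, adjusted p = 0.76).

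Mdm2, Ccng1 and Gadd45b varied within groups along the largest component of variation shared by all genes. That component, the first principal component of the deviations from group means over the 13747 genes, held 24.3% of the within-group variance. Its score was lowest, at -0.41, -0.25 and -0.61, on replicate 1 of the knockout exercised, knockout sedentary and wild-type exercised groups. It was highest on wild-type exercised replicate 2 (0.35). The component held 89.3% of the within-group variance of Ccng1, 73.4% of that of Mdm2 and 77.0% of that of Gadd45b, against 19.8% for Trp53inp1, a share close to that of Gadd45g, and 5.23% for Cdkn1a. Mdm2 and Ccng1 were lowest in their groups on the 3 low-scoring arrays, and Gadd45b was highest in its group on each of them. The loading of Gadd45b lay below that of all but 0.153% of the genes, and that of Mdm2 above that of 99.2%. With the component as a covariate, Gadd45g was called for exercise averaged over genotypes (0.72, limma adjusted p = 0.0396), and Mdm2, Ccng1 and Gadd45b were not called in any of the 7 comparisons.

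**Figure D3:**
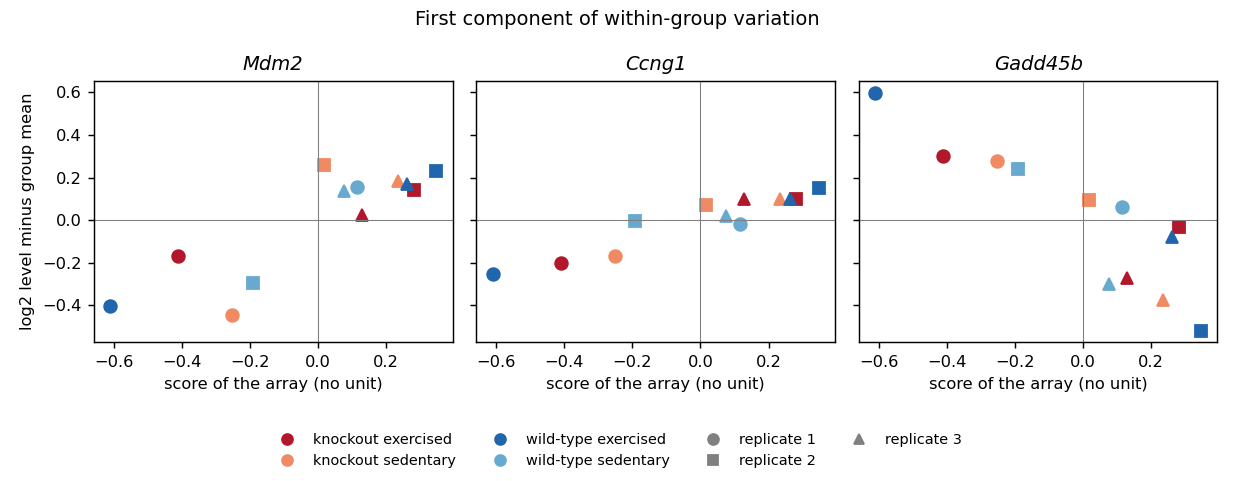
Deviation of Mdm2, Ccng1 and Gadd45b from the group mean (vertical axis, log2 scale) against the score of each of the 12 arrays on the first component of within-group variation (horizontal axis, no unit). Mdm2 and Ccng1 lie below their group means, and Gadd45b above, on the 3 arrays with scores of -0.41, -0.25 and -0.61.

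Genes whose levels over the 12 arrays were most like each member's are given as a description, since the arrays share their groups and the genes were picked from 13747. For Trp53inp1 they were the circadian repressor gene Nfil3 (Pearson's r = 0.955, Spearman's rho = 0.916), the transcription factor gene Cebpd (r = 0.948, rho = 0.902) and the matrix protein gene Tinagl1 (r = 0.947, rho = 0.902). Each of the 3 was called for exercise averaged over genotypes, at 0.72, 1.22 and 0.90. For Gadd45g they were Tsc22d3, which encodes the glucocorticoid-induced protein GILZ (r = 0.916, rho = 0.853), the proton pump subunit gene Atp6v0e (r = 0.891, rho = 0.930) and Cebpd (r = 0.867, rho = 0.818). For Cdkn1a they were Pcsk4 (r = 0.929, rho = 0.832), Depp1 (r = 0.919, rho = 0.909) and the kinase gene Map3k8 (r = 0.909, rho = 0.923), none of them called for exercise averaged over genotypes. Depp1, a FOXO-induced gene, had averaged effects of 0.90 for exercise and 0.92 for genotype.

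For Mdm2 the closest were the related acetyltransferase genes Crebbp (r = 0.981, rho = 0.965) and Ep300 (r = 0.972, rho = 0.951), whose products acetylate p53, and Pdzd8 (r = 0.955, rho = 0.867). Crebbp and Ep300 had averaged exercise effects of -0.10 and -0.08, near that of Mdm2. For Ccng1 they were Zfp106 (r = 0.958, rho = 0.881), Tpp2 (r = 0.956, rho = 0.937) and Slmap (r = 0.949, rho = 0.909). For Gadd45b they were Gcdh (r = 0.896, rho = 0.804), Pidd1 (r = 0.889, rho = 0.909), a p53-induced death domain gene, and Chmp6 (r = 0.880, rho = 0.909). Mdm2, Ccng1 and Gadd45b had 73.4%, 89.3% and 77.0% of their within-group variance on the first within-group component. The score of that component was lowest on replicate 1 of the knockout exercised, knockout sedentary and wild-type exercised groups. Relative to the 12-array mean, Crebbp stood there at -0.20, -0.21 and -0.23 and Ep300 at -0.16, -0.32 and -0.34. Pidd1 stood there at 0.13, 0.16 and 0.27. The part of this component in these likenesses was not tested.

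**Figure D4:**
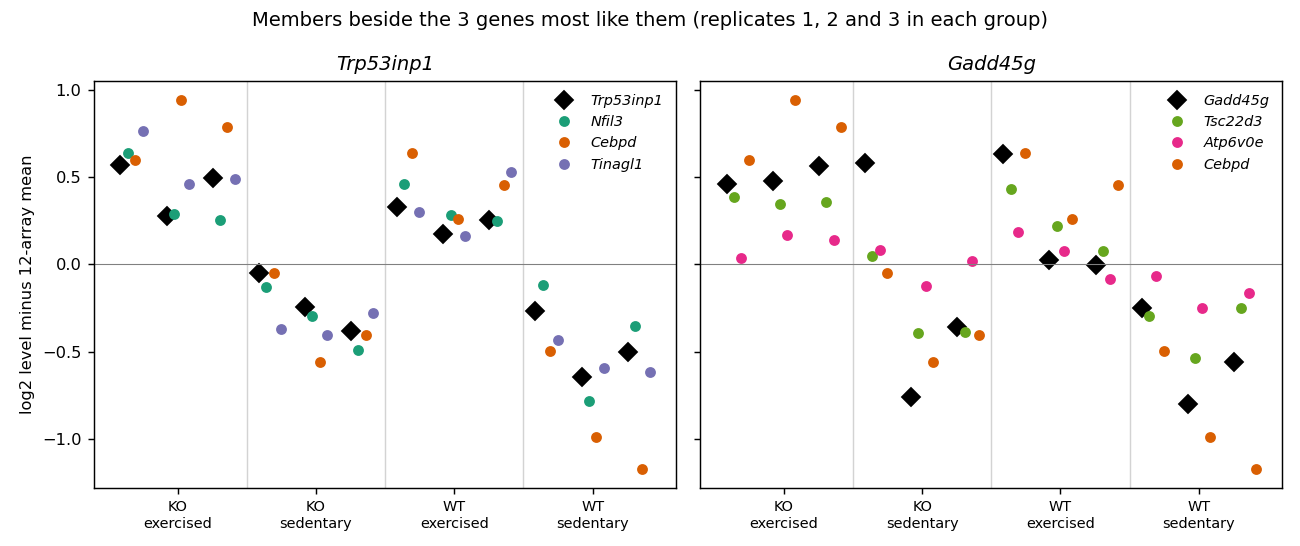
Log2 level minus the 12-array mean (vertical axis) of Trp53inp1 and of Gadd45g (diamonds) and of the 3 genes most like each (circles), on the 3 arrays of each group. Cebpd is among the 3 in both panels, with r = 0.948 to Trp53inp1 and 0.867 to Gadd45g.

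Other genes of the pathway were counted beside the shares of all genes called, which were 0.276% for exercise in the knockout, 0.567% in wild type and 1.6% averaged over genotypes, and 0.546% for genotype averaged over conditions. For genotype in exercised muscle the share was 0.175%. In lists of this size 1 called gene already exceeds those shares, so counts of 0 or 1 are not read as results about a list. Of 33 measured direct p53 targets outside the members, 0 were called for exercise in either genotype, with medians of 0.06 in the knockout and 0.02 in wild type beside 0.00 and -0.02 over all genes. Averaged over genotypes, 1 was called, the DNA repair endonuclease gene Ercc5. It stood at 6.94, 7.13 and 7.09 in knockout exercised arrays, against 6.54, 6.47 and 6.86 in knockout sedentary arrays, and at 7.32, 7.06 and 7.28 in wild-type exercised arrays, against 6.63, 6.65 and 7.03 in wild-type sedentary arrays. Ercc5 rose by 0.44 (SE 0.09, limma adjusted p = 0.0267), with no overlap in either genotype. With each of the 12 arrays left out in turn its call held for 4 of them, at values between 0.40 and 0.50.

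For genotype, Sesn1, which encodes the antioxidant and mTORC1-restraining protein sestrin 1, was the 1 of these 33 targets called, higher in the knockout by 0.54 averaged over conditions (SE 0.11, limma adjusted p = 0.0451) and by 0.84 in exercised muscle (SE 0.16, adjusted p = 0.0495). It stood at 8.73, 8.37 and 8.36 in knockout exercised arrays, against 8.0, 7.5 and 7.43 in wild-type exercised arrays. In knockout sedentary arrays it stood at 7.71, 8.05 and 8.0, against 7.89, 7.56 and 7.58 in wild-type sedentary arrays. The exercised groups did not overlap and the sedentary groups did. Like that of Cdkn1a, the averaged call was close to the threshold, and it held with 3 of the 12 arrays left out in turn, at values between 0.48 and 0.63. The call in exercised muscle was made under 7 of 26 alternative settings, and with 2 of the 12 arrays left out in turn, with adjusted p up to 0.414.

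Of 22 measured p53 regulators and partners, among them Mdm4, Atm and Usp7, 0 were called in each of the 7 comparisons by limma, and of 19 CDK inhibitor and G1 cell cycle genes also 0. Of 9 BCL2 family genes, Bcl2l1 was called, which encodes the apoptosis inhibitor BCL-xL. It stood at 6.32, 6.43 and 6.51 in knockout exercised arrays, against 5.89, 5.95 and 5.93 in knockout sedentary arrays, and at 6.57, 6.30 and 6.53 in wild-type exercised arrays, against 5.85, 5.89 and 5.74 in wild-type sedentary arrays. Bcl2l1 rose by 0.64 in wild type (SE 0.10, limma adjusted p = 0.00678) and by 0.57 averaged over genotypes (SE 0.07, adjusted p = 0.000526), and the averaged call held under all 25 alternative settings. The wild-type call held under 25 of 26 and was lost without wild-type exercised replicate 3 (adjusted p = 0.0501). For exercise in the knockout, Bcl2l1 was not called. Of 15 measured GADD45 partners, p38 and JNK cascade genes and other GADD genes, 0 were called in any of the 7 comparisons.

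**Figure D5:**
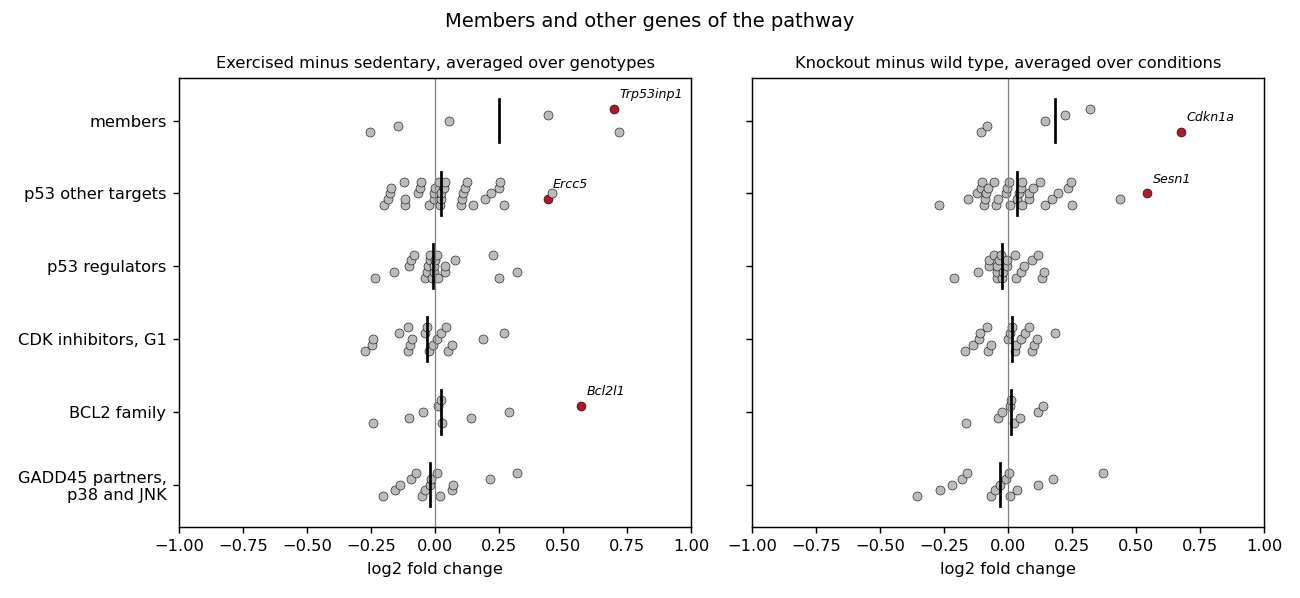
Log2 fold change (horizontal axis) of each measured gene of the members and of 5 other pathway lists, for exercise averaged over genotypes (left) and knockout minus wild type averaged over conditions (right). Black bars are list medians and red points genes with an adjusted p under 0.05, which are Trp53inp1, Ercc5 and Bcl2l1 for exercise and Cdkn1a and Sesn1 for genotype.

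Gene lists for other responses to exercise and stress were counted on the same arrays. They were chosen with earlier results of these data known, so their counts beside all genes are a description. The 20 glucocorticoid receptor targets were all positive for exercise averaged over genotypes (median 0.71). Of these, 14 were called, where 1.6% of all genes were, among them Mt2 (1.31), Cebpd (1.22) and Tsc22d3 (0.60). All 20 were positive for genotype averaged over conditions, with a median of 0.21 and 0 called by limma, where 47.4% of all genes were positive. In sedentary muscle 19 of 20 were positive (median 0.26) and Mt2 was called, 1.29 higher in the knockout (SE 0.18, limma adjusted p = 0.00741), against 12 of 20 positive (median 0.05) and 0 called in exercised muscle. Of 20 immediate-early genes, 19 were positive for exercise averaged over genotypes and 10 were called, among them Nr4a3 (2.15) and Klf4 (0.92). Of 11 measured denervation-induced genes, the receptor kinase gene Musk was called for exercise averaged over genotypes (0.53, SE 0.11, limma adjusted p = 0.0261), with the list's median at 0.00. By genotype, the list's median was -0.11 in the knockout (4 of 11 positive) and 0.21 in wild type (8 of 11 positive), with 0 called in either. On wild-type exercised replicate 1 the immediate-early list stood 0.90 above its 12-array mean, the highest of all arrays, and Trp53inp1 and Gadd45g were the highest of their group there. Without that array, the wild-type exercise effect was 0.68 for Trp53inp1 (limma adjusted p = 0.0456) and 0.55 for Gadd45g (adjusted p = 0.652).

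Markers of other cell types were summarised for the same comparison. The endothelial markers had a median of -0.26 for exercise averaged over genotypes, with 9 of 10 negative and Kdr and Cdh5 called. Relative to the 12-array mean, the endothelial list stood between -0.23 and -0.06 in knockout exercised arrays, against 0.12 to 0.18 in knockout sedentary arrays, and between -0.14 and -0.02 in wild-type exercised arrays, against 0.04 to 0.15 in wild-type sedentary arrays. Fibroblast and matrix markers had opposite signs in the genotypes, with a median of -0.53 in the knockout (1 of 11 positive) and 0.10 in wild type (10 of 11 positive). The difference of exercise effects was negative in all 11, with 0 of them called in any of the 7 comparisons, and the list stood highest on knockout sedentary replicate 3, at 0.96. Schwann cell and nerve markers were positive in 5 of 5 measured genes (median 0.30, 0 called). The same split held for 3 more lists, each with 0 called in any of the 7 comparisons. The median of the 8 smooth muscle and pericyte markers was -0.21 in the knockout (0 positive) and 0.11 in wild type (6 positive). That of the 11 macrophage and leukocyte markers was -0.18 in the knockout (1 positive) and 0.06 in wild type (9 positive). That of the 6 adipocyte markers was -0.19 in the knockout (1 positive) and 0.29 in wild type (6 positive). The 7 satellite cell markers had medians of -0.05 in the knockout and -0.27 in wild type. For exercise averaged over genotypes, Myod1 was called lower (-0.63, limma adjusted p = 0.00349) and Sdc4 higher (0.59, adjusted p = 0.012). A single red blood cell marker was measured, at 0.21 averaged over genotypes. The part of these cell types in the exercise effects on Trp53inp1, Gadd45g and Cdkn1a, in either genotype, was not tested.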

How the data were processed

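The members and gene lists were chosen with earlier results of these data known. Per the labels' protocols, total RNA was labelled with the GeneChip WT PLUS kit for Affymetrix whole-transcript arrays, and the submitters' processing notes name Partek, with no version. The deposited table holds 41345 transcript clusters, taken to be log2 expression from their spread (lowest 0.36, highest 13.9). The log base, background correction, normalization and genome build are not given in the sources used here. Array medians lay between 4.52 and 4.60.

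Of the clusters, 23521 had 1 symbol in the platform annotation, 1814 several and 16010 none. Each gene took its cluster with the highest mean, and genes above the table median (4.56) on at least 3 arrays were tested. Each of the 6 measured members had 1 such cluster. One limma fit (limma 3.58.1, R 4.3.3; lmFit, eBayes with intensity trend) covered the 12 arrays, with a mean for each group and 8 residual degrees of freedom. It gave 7 contrasts, each adjusted by Benjamini-Hochberg over 13747 genes, two-sided. Nothing says that arrays of a group came from separate litters, so p-values measure the spread between these arrays, whose number limits the precision. The fit was tested on simulated data with independent noise for each gene and changes of at least 1 log2 unit. That test does not cover the shared within-group component or smaller changes. Alternatives changed the filter, normalization, array weights, moderation, arrays entering the fit and a covariate, with each array left out in turn. Named genes were all members, called genes of the lists (up to 6 a list), Ddit4, and the 3 genes with the highest Pearson's r to each member. Genes singled out beyond this rule were chosen after their values were seen.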

Additional observations from a re-analysis of the deposited data

How the results depend on the processing

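The labels carry no replicate numbers, and those used here follow accession order. No paired analysis was possible because such numbers pair nothing across groups. Trp53inp1 was called for exercise averaged over genotypes under all 25 alternatives, with values from 0.64 to 0.75. For exercise in the knockout, 0 members were called, in place of 1, under quantile normalization (adjusted p of Trp53inp1 0.0519), ordinary analysis of variance (0.216), no intensity trend (0.0626) and only the groups of the contrast (0.0837). The same held with the 2 arrays that stood apart, knockout sedentary replicate 3 and wild-type exercised replicate 1, left out (0.0823). For exercise in wild type, 0 were called under ordinary analysis of variance (0.114). For exercise averaged over genotypes, 2 were called, Gadd45g being added, with array weights (0.0185) and with the within-group component as a covariate (0.0396), a covariate chosen after the data were seen and derived from the same residuals. Calls over all genes also increased, to 348 and 369 against 220. For genotype averaged over conditions, 0 were called with no filter (adjusted p of Cdkn1a 0.0603), quantile normalization (0.0616), median centring (0.0575), ordinary analysis of variance (0.287), no intensity trend (0.0774) and robust moderation (0.0578).

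With each array left out in turn, the count ran from 0 to 1 for exercise in the knockout, for exercise in wild type, for genotype in sedentary muscle and for genotype averaged over conditions, and from 1 to 2 for exercise averaged over genotypes. Uncalled values moved by over 1.5 times in several comparisons without a change of sign, as for Mdm2 in wild-type exercise (-0.36 to -0.013), Ccng1 in knockout exercise (0.025 to 0.21) and Cdkn1a in knockout exercise (0.14 to 0.44). Values that changed sign were all uncalled. For exercise in the knockout, Mdm2 ran from -0.30 to 0.053 and Gadd45b from -0.32 to 0.011, and for exercise in wild type Ccng1 ran from -0.074 to 0.13. For the difference of exercise effects, Mdm2 ran from -0.083 to 0.29, Ccng1 from -0.017 to 0.21, Trp53inp1 from -0.15 to 0.038, Gadd45b from -0.0081 to 0.55 and Gadd45g from -0.36 to 0.31. For genotype in exercised muscle, Mdm2 ran from -0.21 to 0.10 and Ccng1 from -0.18 to 0.047. For genotype in sedentary muscle, Mdm2 ran from -0.30 to 0.072, Gadd45b from -0.13 to 0.21 and Gadd45g from -0.022 to 0.65. For genotype averaged over conditions, Mdm2 ran from -0.18 to 0.030. With array weights, the difference of exercise effects was -0.062 for Mdm2 and 0.22 for Gadd45g. Without the 2 arrays that stood apart, Gadd45g had a difference of 0.044, and Mdm2 an exercise effect of 0.017 in the knockout and 0.0020 averaged over genotypes. The causes of these changes were not tested. Over all genes, the calls ran from 0 to 90 for exercise in the knockout (38 as reported), 12 to 127 in wild type (78) and 67 to 369 averaged over genotypes (220), and for genotype from 1 to 89 in exercised muscle (24), 1 to 33 in sedentary muscle (19) and 23 to 193 averaged over conditions (75). The difference of exercise effects had 0 to 1.

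With 3 arrays a group, a difference under about the size of the intervals given could not be detected. Trp53 and Bax, and a row for Gadd45a alone, were not analysed here, and RNA levels say nothing of p53 protein or its activity.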
